A study of Homo sapiens with 6 samples.

Results

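The 30 genes described here encode the collagens, laminins and linker proteins of the basement membrane, together with the dystroglycan receptor DAG1, the Fraser complex and SPARC. They were taken by symbol, with 1 entry per symbol, from the 60835 distinct symbols of the deposited count table. All 30 were found, and 26 had enough reads to pass the filter on low counts that left 15911 genes for testing. NID2, LAMB4, FREM1 and FREM2 did not pass it. RNA was sequenced from PANC-1, an established human line of pancreatic epithelioid carcinoma. SMAD4, the DNA-binding partner shared by the TGF-beta and BMP receptor SMADs, had been knocked out in these cells. The libraries were made on day 3 from knockout cells transfected with SMAD4 carrying the R272K substitution (3 libraries) or with wild-type SMAD4, WT (3 libraries). The series' title concerns methylation of SMAD4 arginine by PRMT1, and R272K puts a lysine, which arginine methyltransferases do not modify, in place of an arginine. Every library therefore shares the knockout background and the transfection, and knockout cells given no SMAD4 were not analysed here. The labels do not say how the knockout line was made, whether it is 1 clone, or whether the replicates were separate cultures, and each p-value here reflects the scatter among these 6 libraries, possibly technical, and no more.

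Basement membranes are thin sheets of extracellular matrix on which epithelial cells rest. Laminins, trimers of an alpha, a beta and a gamma chain, assemble at the cell surface, and collagen IV forms a second, crosslinked network. Nidogens and the heparan sulfate proteoglycans perlecan and agrin hold the networks together, and integrins and dystroglycan attach them to the cell. In pancreatic cancer the basement membrane is the barrier that carcinoma cells breach, and TGF-beta signalling through SMADs is a known regulator of several of its genes.

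The sequences shown are stretches before starts of 3 members whose values are followed most closely in the results, NID1, HSPG2 and LAMB3, and of LAMA3, which pairs with LAMB3 in laminin-332. They come from RefSeq on the build GRCh38.p14, run 5′ to 3′ on the gene's strand, and lie before 1 RefSeq start of the gene, shortened where they would reach an exon of GENCODE release 29. For NID1 and HSPG2 this start is at or close to the 5′ end of the gene. For LAMB3 (chr1:209614870-209652425) and LAMA3 (chr18:23689453-23956222) it is an alternative start inside the gene, at base 209651374 for LAMB3 and base 23873020 for LAMA3. Promoter windows were at hand for 27 of the 30 members. In NID1 and HSPG2 the capitals mark letters that match any of 3 short elements bound by SMAD proteins, searched on both strands and counted with overlaps. The first is the SMAD box, CAGAC. The others are the GC-rich elements GGCGC and, as a separate search, GGCCG.
NID1 (chr1:236065163-236065340, minus strand): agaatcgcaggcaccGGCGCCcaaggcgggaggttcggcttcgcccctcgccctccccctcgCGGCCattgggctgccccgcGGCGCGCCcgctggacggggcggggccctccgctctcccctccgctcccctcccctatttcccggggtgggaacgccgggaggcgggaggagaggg
HSPG2 (chr1:21937311-21937560, minus strand): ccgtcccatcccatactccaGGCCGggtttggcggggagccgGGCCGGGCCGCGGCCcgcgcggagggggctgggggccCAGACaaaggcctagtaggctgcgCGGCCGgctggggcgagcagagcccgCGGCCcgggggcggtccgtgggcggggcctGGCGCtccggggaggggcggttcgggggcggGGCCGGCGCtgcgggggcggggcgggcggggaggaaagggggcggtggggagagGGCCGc
In LAMB3 and at both LAMA3 sites the capitals mark only TGACTCA or its reverse complement TGAGTCA, and SMAD letters are left unmarked. These are the letters recognised by AP-1, the FOS and JUN heterodimer that cooperates with SMADs.
LAMB3 (chr1:209651395-209651624, minus strand): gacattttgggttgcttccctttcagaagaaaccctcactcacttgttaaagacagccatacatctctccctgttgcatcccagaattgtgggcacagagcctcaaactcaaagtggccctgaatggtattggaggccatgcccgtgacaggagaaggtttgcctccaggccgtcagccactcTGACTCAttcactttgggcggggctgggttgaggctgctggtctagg
LAMA3, farther site (chr18:23872885-23872911, plus strand): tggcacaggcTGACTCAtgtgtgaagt
LAMA3, nearer site (chr18:23872941-23872967, plus strand): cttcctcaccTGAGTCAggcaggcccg
The LAMA3 matches begin 125 and 69 bases before the RefSeq start. The stretch shown for NID1 held 0 matches to CAGAC, 4 to GGCGC and 1 to GGCCG, and that for HSPG2 held 1, 2 and 9, both strands counted. SMAD letters, not marked there, were also found for the other genes shown. The LAMB3 stretch held 1 match to GGCCG, and the 250 bases before the LAMA3 start held 2 to CAGAC. Among 35116 windows of 250 bases before RefSeq starts, TGACTCA or TGAGTCA was present in 4.2%. It was in 2 of 34 member windows, and LAMA3 and LAMB3 were the 2 of 27 member genes that held it. In LAMB3 the match belonged to 1 of 3 windows, and both windows nearer the 5′ end of the gene held none. The SMAD letters were common everywhere, on either strand. CAGAC was in 38% of windows, in 13 of 34 member windows and in 11 of 27 member genes. GGCGC was in 44.5% of windows, 17 member windows and 16 member genes. GGCCG was in 44.7% of windows, 21 member windows and 18 member genes. A gene can have several windows, so only the window counts compare directly with these percentages. These matches describe letters and not occupied sites.

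SMAD4 itself, the gene that separates the groups, was checked first. It had 40.6, 45.6 and 43.6 CPM (read counts relative to the library total after TMM scaling) in R272K cells, against 83.4, 93.6 and 89.0 CPM in WT cells. Its transcript was lower in every R272K library, with a log2 fold change of R272K over WT of -1.03 (SE 0.0749, adjusted p = 6.28e-06 by edgeR's quasi-likelihood test). The counts do not tell endogenous from transfected SMAD4, and the substitution and the lower SMAD4 level cannot be told apart in any comparison that follows. Total counts were 15148435 to 15406781 in R272K libraries and 14776148 to 17706201 in WT libraries. One library stood apart: on the first principal component, which held 32.2% of the variance, WT replicate 1 lay at 31.3. WT replicates 2 and 3 lay at 9.56 and 0.13, and the R272K libraries between -15.6 and -11.3. The same component thus also separated the groups. For WT replicate 1 the deviation from its group declined as genes became longer. Its Spearman rho was -0.42 across 15911 genes, which share the library and are not independent. WT replicates 2 and 3 gave 0.24 and 0.33, but their reference mean contained WT replicate 1, so these values partly mirror its trend. R272K replicates 1, 2 and 3, compared within their own group, gave -0.0034, -0.11 and 0.089. The members' fold changes are therefore given with and without WT replicate 1. All 5 epithelial markers (KRT7, KRT8, KRT18, KRT19 and EPCAM) had at least 10 counts in every library. Their summed level was 4714 to 5185 TPM, the length-scaled level, in R272K libraries and 3935 to 4445 TPM in WT libraries. VIM, a mesenchymal gene listed with them that does not separate the cell types, brought the sums to 5696 to 6196 TPM in R272K and 4901 to 5523 TPM in WT libraries. For matrix-producing fibroblasts, 0 of 6 markers reached 10 counts everywhere, and their summed level was 1.37 to 2.15 TPM in R272K and 1.48 to 1.82 TPM in WT libraries. Endothelial markers summed to 3.39 to 3.57 TPM in R272K and 2.68 to 4.77 TPM in WT libraries (KDR alone of 6 reached 10 counts everywhere). Leukocyte markers summed to 4.42 to 6.87 TPM in R272K and 4.25 to 6.57 TPM in WT libraries (CD14 alone of 6).

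The basement membrane transcripts of these cells were dominated by a few chains. Levels between genes were compared in TPM. 10 members averaged at least 10 TPM over the 6 libraries and held 97.8% of the members' summed TPM, and the lowest of them stood at 28.7 TPM against 7.60 TPM for the next gene. In descending order they were COL18A1 (348 ± 25.9 TPM in R272K cells and 312 ± 29.4 TPM in WT cells, SD, n = 3 each here and throughout), LAMB1 (245 ± 7.14 and 224 ± 24.3 TPM), LAMC1 (220 ± 6.07 and 197 ± 31.0 TPM), DAG1 (185 ± 7.95 and 158 ± 18.4 TPM), AGRN (178 ± 16.5 and 146 ± 12.8 TPM), LAMA5 (148 ± 14.5 and 119 ± 19.3 TPM), NID1 (129 ± 6.52 and 91.5 ± 13.1 TPM), COL7A1 (94.7 ± 1.03 and 92.1 ± 7.08 TPM), LAMB2 (65.1 ± 3.78 and 62.5 ± 5.46 TPM) and HSPG2 (32.7 ± 2.28 and 24.6 ± 6.63 TPM), R272K cells first in each pair. Of neighbours in this order, the libraries of DAG1 and AGRN overlapped in both groups, and those of LAMB1 and LAMC1, of LAMC1 and DAG1, of LAMA5 and NID1, and of NID1 and COL7A1 overlapped in WT cells but not in R272K cells. Compared within each library, LAMB1 was always above LAMC1, LAMC1 above DAG1 and LAMA5 above NID1, while NID1 and COL7A1 changed places among the WT libraries. These 10 hold the alpha-5, beta-1, beta-2 and gamma-1 chains of laminin-511 and laminin-521, a nidogen, both large proteoglycans and dystroglycan. Collagen IV, the network-forming collagen of basement membranes, was sparse by comparison: its 6 chains together reached 10.1 ± 0.186 TPM in R272K cells and 8.87 ± 1.55 TPM in WT cells, under the level of the type VII collagen gene alone.

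**Figure D1:**
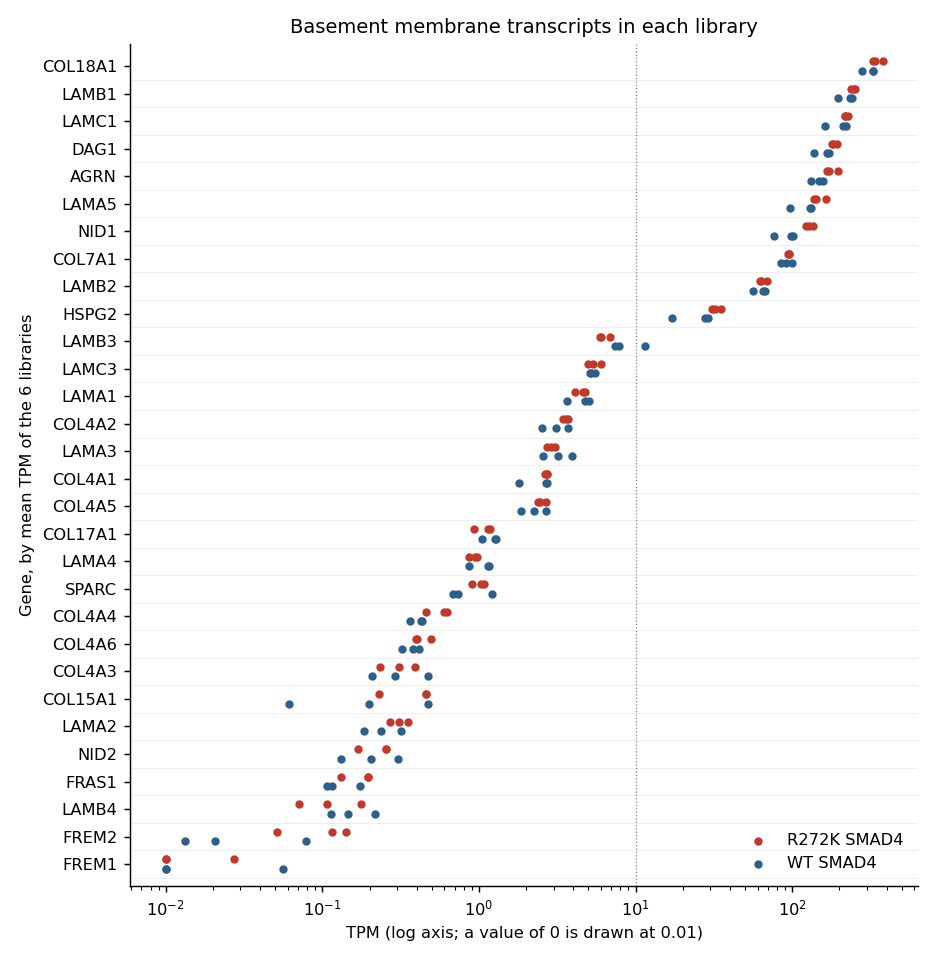
Level of each of the 30 members in TPM (log axis) in the 3 R272K and the 3 WT libraries, 1 point per library, ordered by mean level. COL18A1 lies highest at 278 to 377 TPM, 10 members lie above 10 TPM, and FREM1 was at 0 in 4 of 6 libraries.

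1 member, NID1, was higher in R272K cells past the threshold of an adjusted p of 0.05, none was lower, and 25 of the 26 tested were not called. Across all 15911 genes the same test called 109 genes higher (0.685%) and 84 lower (0.528%), 193 in all (1.21%). Beyond the calls, 20 of 26 members had a log2 fold change above 0, against 49.7% of all genes, and their median was 0.14 against -0.0011 for all genes. At an unadjusted p under 0.05, 5 members were higher (7.18% of all genes) and 1 was lower (7.09%). In 8 of 26 members every R272K library was above every WT library (10.9% of all genes), and in 1, LAMB3, every R272K library was below (10.4%). All 8 were among the 10 abundant members, the exceptions being COL7A1 and LAMB2. The members are long genes: 25 of 26 were longer than the median tested gene, with a median of 2.00 times its length, and in WT replicate 1 22 of 26 lay below their mean in the other WT libraries, by a median of 0.20 on the log2 scale. The median deviation of that library was 0.010 over all genes, and -0.22 over genes at least 2.00 times the median length. Without WT replicate 1 the members' median log2 fold change was 0.08, and with each library's length trend removed by a smoothed offset it was 0.11. In bulk RNA, fewer cells making a transcript and less transcript per cell cannot be told apart.

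**Figure D2:**
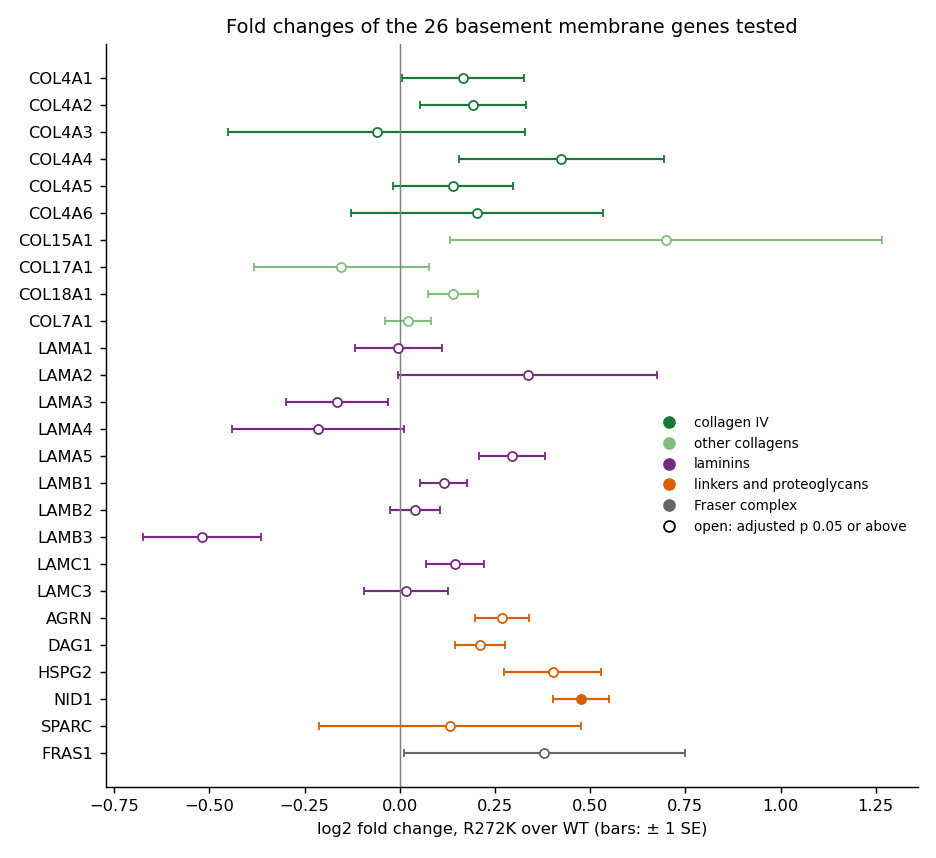
Log2 fold change of R272K over WT for the 26 tested members, with bars of 1 SE, coloured by role, with filled symbols for an adjusted p under 0.05 and open ones for the rest. NID1 at 0.48 is the called member, LAMB3 at -0.52 lies lowest, and the wide bars belong to genes at about 1 CPM or less such as COL15A1 (SE 0.566).

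Among the linkers, NID1 gave the clearest difference. NID1 (ENSG00000116962, chr1:235975830-236065109, minus strand) encodes nidogen-1, which binds the laminin gamma-1 chain, collagen IV and perlecan. It had 236, 227 and 246 CPM in the R272K libraries, against 151, 179 and 180 CPM in the WT libraries. The groups did not overlap, and the lowest R272K library was well above the highest WT library. NID1 averaged 236 ± 9.38 CPM in R272K cells and 170.0 ± 16.2 CPM in WT cells, and it rose 1.39-fold in R272K cells (log2 fold change 0.48, SE 0.0743, adjusted p = 0.00577 by edgeR's quasi-likelihood test). The log2 fold change was 0.40 when WT replicate 1 was left out (adjusted p = 8.94e-08), and with the length trend removed it was 0.44 (adjusted p = 2.79e-05). The call was lost without R272K replicate 1 (0.48, adjusted p = 0.0632) and without R272K replicate 3 (0.45, adjusted p = 0.0880). It was lost too when TPM values were tested by limma in place of counts, at an adjusted p of 0.156 to 0.380. NID1 was called in 16 of the 21 fits that were run, with a log2 fold change between 0.40 and 0.52. NID2, the other nidogen, was near the detection limit, with 4, 6 and 6 counts in R272K libraries and 6, 3 and 7 counts in WT libraries, although it shares 1915 exonic bases with RTRAF on the other strand, a gene with 917 to 1368 counts.

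HSPG2 encodes perlecan, the large heparan sulfate proteoglycan that bridges laminin, nidogen and collagen IV. It had 146, 142 and 159 CPM in R272K libraries, against 83.4, 132 and 123 CPM in WT libraries. The R272K libraries were above all 3 WT libraries, but much of the gap came from WT replicate 1, in which HSPG2 lay 0.61 below the other WT libraries on the log2 scale. Its transcript is 4.11 times as long as that of the median gene. With all libraries HSPG2 was not called (log2 fold change 0.40, SE 0.127, adjusted p = 0.165). Without WT replicate 1 the log2 fold change was smaller, 0.22, and passed the test (adjusted p = 0.00570), as did the value with the length trend removed (0.33, adjusted p = 0.0206). Of the 21 fits, 6 called HSPG2. HSPG2 shares 2121 exonic bases with LDLRAD2 on the other strand, which had at most 6 counts in a library.

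AGRN encodes agrin, the proteoglycan that binds laminins and dystroglycan and organises the neuromuscular synapse. It had 398, 409 and 462 CPM in R272K libraries, against 338, 373 and 344 CPM in WT libraries. The groups did not overlap, and here WT replicate 1 was close to WT replicate 3. The log2 fold change was 0.27 (SE 0.0708, adjusted p = 0.0984), 0.24 without WT replicate 1 (adjusted p = 0.0298) and 0.21 with the length trend removed (adjusted p = 0.0459). DESeq2, run on all libraries, called it at an adjusted p of 0.0453. Without R272K replicate 3, its highest library, the log2 fold change was 0.20 (adjusted p = 0.401). Of the 21 fits, 6 called AGRN.

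DAG1 encodes both subunits of dystroglycan, the receptor whose sugar chains bind laminins, agrin and perlecan. It had 342, 336 and 357 CPM in R272K libraries, against 275, 310 and 310 CPM in WT libraries. All R272K libraries were above the WT libraries, with WT replicate 1 the lowest. DAG1 was not called (log2 fold change 0.21, SE 0.0655, adjusted p = 0.160), and it passed the test without WT replicate 1 (0.15, adjusted p = 0.0162) and with the length trend removed (0.18, adjusted p = 0.0445). Of the 21 fits, 3 called DAG1. SPARC encodes osteonectin, a matricellular protein that binds collagen IV. It averaged 1.1 ± 0.106 CPM in R272K cells and 0.985 ± 0.382 CPM in WT cells, and the groups overlapped (log2 fold change 0.13, SE 0.344, adjusted p = 0.897). WT replicate 1 was the highest library for SPARC, and without it the value was 0.51 (adjusted p = 0.604). Summed in TPM, the 6 linkers and proteoglycans (NID1, NID2, HSPG2, AGRN, DAG1 and SPARC) reached 510.3, 503.7 and 563 in R272K libraries, against 364, 452 and 449 in WT libraries, with no overlap.

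**Figure D3:**
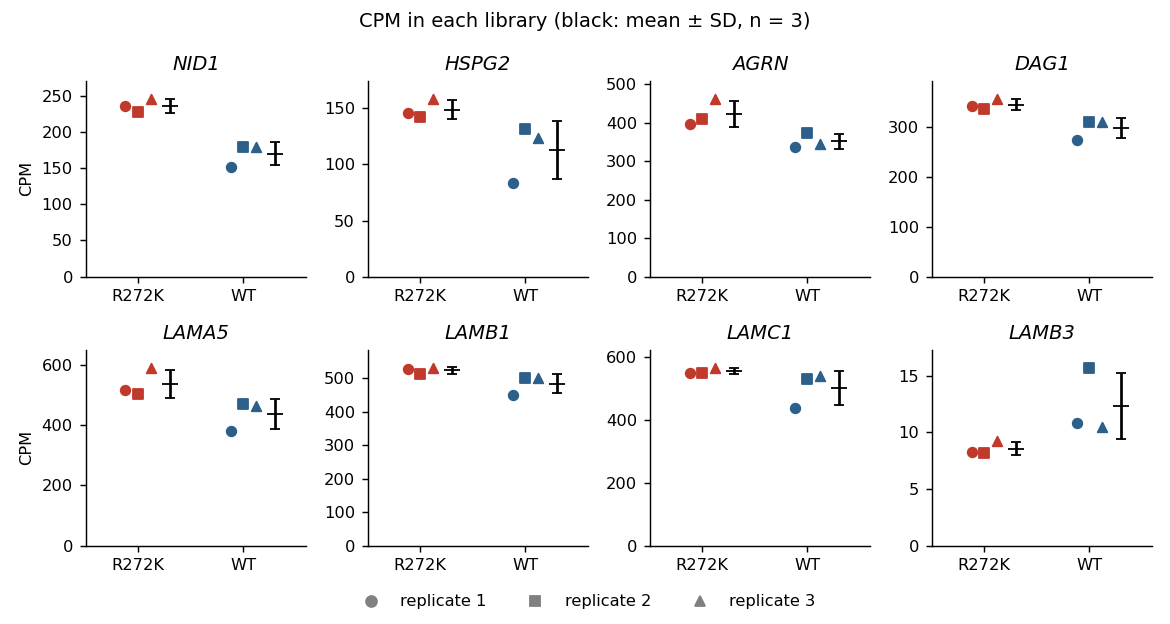
CPM per library of NID1, HSPG2, AGRN, DAG1, LAMA5, LAMB1, LAMC1 and LAMB3 (linear axes from 0), with R272K libraries left of WT libraries, marker shape giving the replicate and black bars the mean ± SD of 3 libraries. NID1 shows no overlap between 227 to 246 CPM in R272K and 151 to 180 CPM in WT libraries, and the HSPG2 WT values spread between 83.4 and 132 CPM.

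Of the 11 laminin chains, 10 were tested and none was called. LAMA5, the alpha-5 chain that carries laminin-511 and laminin-521, had 515, 504 and 589 CPM in R272K libraries, against 379, 471 and 462 CPM in WT libraries. The groups did not overlap, and WT replicate 1 was the lowest library. Its log2 fold change was 0.29 (SE 0.0868, adjusted p = 0.139), and it passed the test without WT replicate 1 at 0.20 (adjusted p = 0.0496) and with the length trend removed at 0.22 (adjusted p = 0.0263). Without R272K replicate 3, its highest library, it was 0.22 (adjusted p = 0.468). Of the 21 fits, 6 called LAMA5. LAMA5 shares 244 exonic bases with ADRM1 on the other strand, a gene with 592 to 889 counts, and the sources used here do not say whether the counting was stranded.

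LAMB1, the beta-1 chain, had 529, 512 and 531 CPM in R272K libraries, against 451, 499.6 and 501 CPM in WT libraries. LAMC1, the gamma-1 chain found in most laminin trimers, had 549, 549 and 565 CPM in R272K libraries, against 439, 528 and 538 CPM in WT libraries. In both genes the R272K libraries were all above the WT libraries, by small margins except against WT replicate 1. Their log2 fold changes were 0.11 for LAMB1 (SE 0.0622, adjusted p = 0.431) and 0.14 for LAMC1 (SE 0.0756, adjusted p = 0.414). Leaving out WT replicate 1 gave 0.07 for LAMB1 and 0.06 for LAMC1, and neither was called in any of the 21 fits. The LAMC1 to LAMB1 ratio of TPM was 0.882, 0.912 and 0.905 in R272K libraries, against 0.827, 0.899 and 0.912 in WT libraries, which overlap (exact permutation test, two-sided, p = 0.7, where 3 against 3 allows no p under 0.1). The log2 difference of that ratio was 0.034, and -0.0095 without WT replicate 1. LAMB2, the beta-2 chain of laminin-521, averaged 118 ± 5.49 CPM in R272K cells and 114 ± 4.23 CPM in WT cells (log2 fold change 0.04, SE 0.0649, adjusted p = 0.821, and 0.0094 without WT replicate 1).

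LAMB3 was the 1 member whose R272K libraries all lay below the WT libraries. It encodes the beta-3 chain, which is found in laminin-332, the laminin of epithelial anchoring sites. It had 8.27, 8.18 and 9.25 CPM in R272K libraries, against 10.8, 15.7 and 10.5 CPM in WT libraries. The R272K values were tight, and WT replicate 2 stood above the other WT libraries. LAMB3 was not called with all libraries (log2 fold change -0.52, SE 0.155, adjusted p = 0.145). It passed the test without WT replicate 1 (-0.61, adjusted p = 0.00913) and with the length trend removed (-0.53, adjusted p = 0.0432), while without WT replicate 2 it was -0.32 (adjusted p = 0.382). Of the 21 fits, 5 called LAMB3. LAMA3, the alpha-3 chain of the same trimer, averaged 9.80 ± 0.665 CPM in R272K cells and 11 ± 1.79 CPM in WT cells, with overlap (log2 fold change -0.17, SE 0.134, adjusted p = 0.615). When WT replicate 1 was set aside, its 3 R272K libraries were below both remaining WT libraries (-0.28, adjusted p = 0.257). That held for 3 of 26 members in all (LAMA3, LAMB3 and COL17A1), a smaller share than the 16.6% of all genes. The LAMB3 to LAMA3 ratio of TPM was 2.08, 1.94 and 2.51 in R272K libraries, against 2.87, 3.59 and 2.01 in WT libraries, with overlap (exact permutation p = 0.3). The log2 difference was -0.34, and -0.31 without WT replicate 1. LAMA3 and LAMB3 are the pair with the AP-1 letters shown above, each before an internal start. Those letters were in 2 of 34 member windows, against 4.2% of all windows, too few to set the members apart. The counts by symbol do not separate starts, and a link between those letters and these values was not tested.

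The remaining laminin chains were low and showed no call. LAMA1, the alpha-1 chain of early embryonic basement membranes, averaged 14.7 ± 1.01 CPM in R272K cells and 14.8 ± 1.77 CPM in WT cells (adjusted p = 0.990). LAMC3, the gamma-3 chain, averaged 12.8 ± 1.12 CPM in R272K cells and 12.7 ± 0.707 CPM in WT cells (adjusted p = 0.964). LAMA4, the alpha-4 chain of vessel walls, averaged 2.13 ± 0.115 CPM in R272K cells and 2.46 ± 0.454 CPM in WT cells (log2 fold change -0.21, SE 0.226, adjusted p = 0.715). These groups overlapped in each gene. With WT replicate 1 left out, the log2 fold change was -0.10 for LAMA1, against -0.0042 with all libraries, 0.042 for LAMC3, against 0.016, and -0.088 for LAMA4, in which that library was the highest. LAMA2, the alpha-2 chain of muscle, averaged 0.986 ± 0.121 CPM in R272K cells and 0.785 ± 0.181 CPM in WT cells (log2 fold change 0.34, SE 0.341, adjusted p = 0.701, and 0.19 without WT replicate 1). LAMB4 had 5, 2 and 3 counts in R272K libraries and 4, 4 and 6 counts in WT libraries, too few to test.

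None of the 6 collagen IV genes was called. COL4A1 and COL4A2, the chains of the common alpha-1, alpha-1, alpha-2 trimer, start 126 bases apart on opposite strands of chromosome 13. COL4A1 averaged 5.59 ± 0.165 CPM in R272K cells and 5.01 ± 0.841 CPM in WT cells (log2 fold change 0.17, SE 0.161, adjusted p = 0.686). COL4A2 averaged 7.32 ± 0.209 CPM in R272K cells and 6.43 ± 0.877 CPM in WT cells (log2 fold change 0.19, SE 0.140, adjusted p = 0.572). In both genes WT replicate 1 was the lowest library and the groups overlapped, and without it the log2 fold changes were 0.03 for COL4A1 and 0.10 for COL4A2. Their ratio of TPM, COL4A2 over COL4A1, was 1.27, 1.31 and 1.41 in R272K libraries, against 1.40, 1.15 and 1.39 in WT libraries (exact permutation p = 0.8, log2 difference 0.024, and 0.074 without WT replicate 1).

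COL4A5 and COL4A6, a second divergent pair on chromosome X with starts 379 or 1415 bases apart, also overlapped between groups. COL4A5 averaged 5.20 ± 0.339 CPM in R272K cells and 4.73 ± 0.608 CPM in WT cells (log2 fold change 0.14, adjusted p = 0.738, and 0.049 without WT replicate 1). COL4A6 averaged 0.922 ± 0.124 CPM in R272K cells and 0.802 ± 0.0701 CPM in WT cells (log2 fold change 0.20, adjusted p = 0.824, and 0.15 without WT replicate 1). The exact permutation p for the COL4A6 to COL4A5 ratio was 0.8 (log2 difference 0.055, and 0.088 without WT replicate 1). The third pair, COL4A3 and COL4A4, whose products join COL4A5 in the collagen of the kidney filter, has starts 418 bases apart on chromosome 2. COL4A4 had 1.90, 1.46 and 1.95 CPM in R272K libraries, against 1.48, 1.35 and 1.11 CPM in WT libraries, with R272K replicate 2 just under WT replicate 1 (log2 fold change 0.42, SE 0.270, adjusted p = 0.510, and 0.52 without WT replicate 1). COL4A3 averaged 0.788 ± 0.189 CPM in R272K cells and 0.831 ± 0.314 CPM in WT cells (log2 fold change -0.061, adjusted p = 0.961, and -0.29 without WT replicate 1).

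The 4 other collagens differed widely in level and not detectably between groups. COL18A1, the proteoglycan collagen whose end fragment is endostatin, was the most abundant member. It had 689.5, 712 and 779 CPM in R272K libraries, against 625, 686 and 668 CPM in WT libraries. The groups were separated by a narrow margin (log2 fold change 0.14, SE 0.0657, adjusted p = 0.356), and the value was 0.10 without WT replicate 1 (adjusted p = 0.163). COL18A1 shares 1401 exonic bases with SLC19A1 on the other strand, which had 626 to 786 counts. COL7A1, the anchoring fibril collagen, averaged 279 ± 3.18 CPM in R272K cells and 275 ± 14.9 CPM in WT cells (log2 fold change 0.021, SE 0.0614, adjusted p = 0.905, and 0.0091 without WT replicate 1). COL17A1, a transmembrane collagen of hemidesmosomes, averaged 1.93 ± 0.232 CPM in R272K cells and 2.15 ± 0.135 CPM in WT cells (log2 fold change -0.15, adjusted p = 0.806, and -0.21 without WT replicate 1). COL15A1, a relative of COL18A1, had 12, 6 and 12 counts in R272K libraries and 2, 5 and 12 counts in WT libraries, which overlap (log2 fold change 0.70, SE 0.566, adjusted p = 0.615, and 0.22 without WT replicate 1).

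The Fraser complex, which links the epithelial basement membrane to the underlying matrix in the embryo, was close to silent. FRAS1 averaged 0.878 ± 0.196 CPM in R272K cells and 0.673 ± 0.160 CPM in WT cells, with overlap (log2 fold change 0.38, adjusted p = 0.686, and 0.33 without WT replicate 1). FREM2 had 9, 4 and 11 counts in R272K libraries and 2, 1 and 6 counts in WT libraries. FREM1 had 1 count in the 3 R272K libraries together and 2 in the 3 WT libraries together.

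Leaving out WT replicate 1 and removing the length trend changed the members' calls in the same way. Without WT replicate 1, 5 members were higher (NID1, AGRN, DAG1, HSPG2 and LAMA5), against 2.94% of all genes, and LAMB3 was lower, against 2.42%. With the length trend removed and all 6 libraries kept, the same 5 were higher (2% of all genes) and LAMB3 was lower (1.89%). With both steps together, a fit added after the data were seen, the same 6 were called (3.12% and 2.6% of all genes). For HSPG2 and LAMA5 leaving out WT replicate 1 lowered both the log2 fold change and its error, to an SE of 0.0511 for HSPG2, against 0.127 with all libraries, and 0.0550 for LAMA5, against 0.0868. In this fit every R272K library was above both WT libraries in 10 members (17% of all genes), the 8 named with all libraries plus COL4A4 and SPARC. Over the 10 abundant members, which share the library, the Spearman rho between length and the deviation of WT replicate 1 was -0.37. What sets WT replicate 1 apart was not tested.

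**Figure D4:**
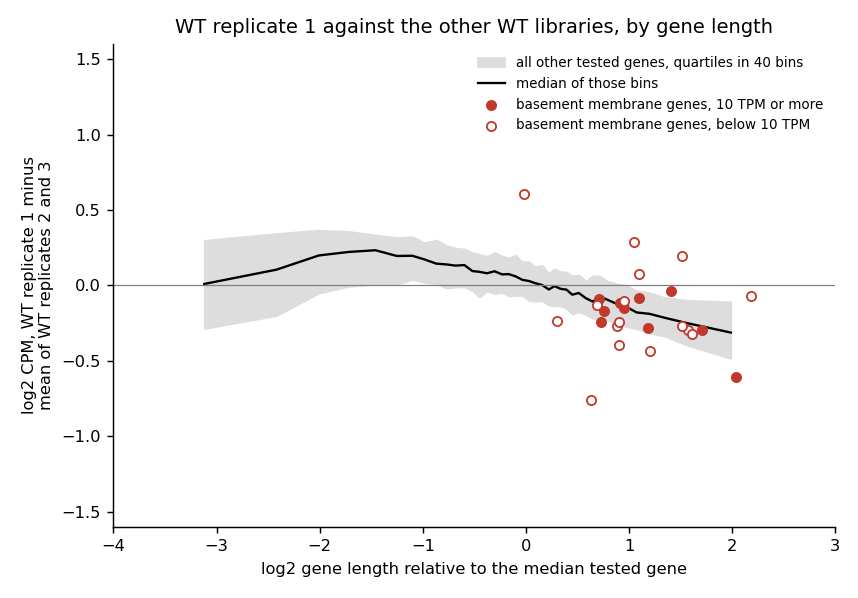
Deviation of WT replicate 1 from the mean of the other WT libraries (log2 scale) against log2 gene length relative to the median tested gene. A grey band (quartiles) and a black line (median) summarise the other tested genes in bins of length. Points are the tested members, filled at 10 TPM or more and open below. The deviation falls with length across all genes (rho -0.42), and HSPG2, at 4.11 times the median length, lies at -0.61.

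**Figure D5:**
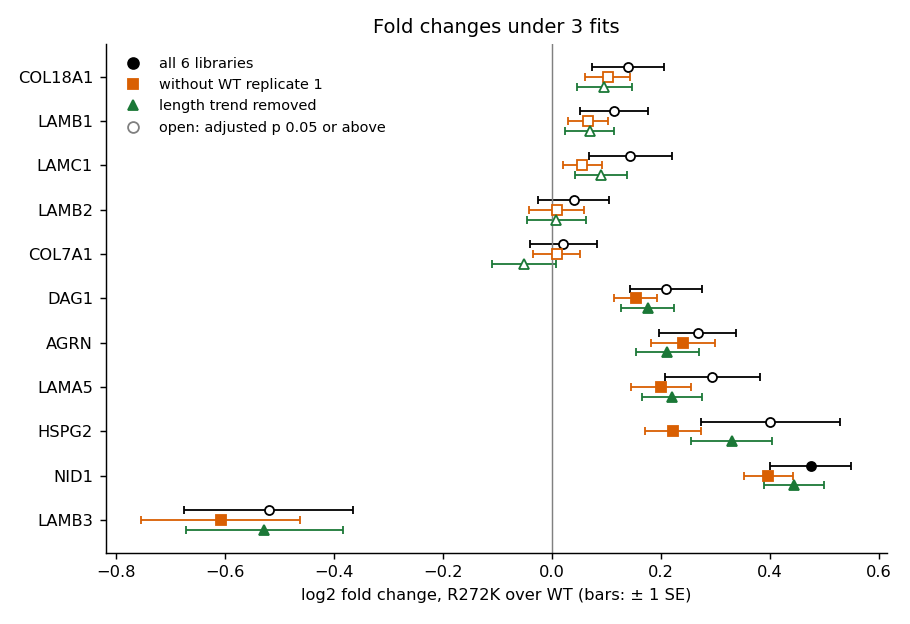
Log2 fold change of R272K over WT with bars of 1 SE for the abundant members and LAMB3 in 3 fits: all libraries, without WT replicate 1, and with the length trend removed, filled where the adjusted p is under 0.05. HSPG2 moves most, between 0.40 with all libraries and 0.22 without WT replicate 1, NID1 stays between 0.40 and 0.48, and LAMB3 is below 0 in all 3 fits.

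The genes around the members were followed in 4 lists. These lists, like the members, were chosen with earlier results of these data known. Their shares of calls are therefore described and not tested against all genes. Of 26 enzymes and carriers that make, fold, export or crosslink collagen, all 26 were tested and none was called, with a median log2 fold change of 0.10, with and without WT replicate 1. At an unadjusted p under 0.05, 5 were higher (7.18% of all genes) and 1 was lower (7.09%). LOXL2, a lysyl oxidase that crosslinks collagen IV, averaged 124 ± 3.80 CPM in R272K cells and 108 ± 5.16 CPM in WT cells (log2 fold change 0.21, SE 0.0644, adjusted p = 0.160). PPIB, the collagen-folding cyclophilin B, averaged 51.0 ± 3.54 CPM in R272K cells and 60.6 ± 5.73 CPM in WT cells (log2 fold change -0.25, SE 0.0851, adjusted p = 0.202). LOXL2 and PLOD1, a collagen lysyl hydroxylase, were called higher without WT replicate 1 (2.94% of all genes), at log2 fold changes of 0.24 and 0.23.

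Of 26 other proteins that bind to basement membranes, 16 were tested, 4 rose in R272K cells (0.685% of all genes) and none fell, with a median log2 fold change of 0.27. Because this list was chosen with earlier results known, its calls are no test of an excess over all genes. Without WT replicate 1 the median was 0.15 over 17 tested genes and 5 were higher (2.94% of all genes), the same 4 and FBLN1, a fibulin of basement membranes and elastic fibres (0.27, adjusted p = 0.00462). TINAGL1, a laminin-binding matricellular protein, had 21.9, 26.3 and 25.1 CPM in R272K libraries, against 16.4, 17.5 and 14.0 CPM in WT libraries (log2 fold change 0.61, SE 0.108, adjusted p = 0.0143). VWA1, a perlecan-binding protein, had 106, 110.1 and 123 CPM in R272K libraries, against 91.0, 87.4 and 84.3 CPM in WT libraries (0.37, SE 0.0728, adjusted p = 0.0260). EFEMP2, a fibulin needed for elastic fibres, averaged 20.3 ± 0.577 CPM in R272K cells and 14.8 ± 0.635 CPM in WT cells (0.45, SE 0.0916, adjusted p = 0.0314). TGFBI, a TGF-beta-induced collagen-binding protein, averaged 366 ± 14.3 CPM in R272K cells and 280 ± 5.98 CPM in WT cells (0.39, SE 0.0593, adjusted p = 0.00520). In none of the 4 did the groups overlap, where 10.9% of all genes had every R272K library above every WT library. By CPM, WT replicate 1 was the lowest WT library in none of the 4. By TPM it was the lowest for TGFBI, VWA1 and EFEMP2, so these values do not settle whether the calls are free of that library's deviation. All 4 calls were lost without R272K replicate 2, at an adjusted p of 0.0636 for TGFBI, 0.119 for TINAGL1, 0.147 for VWA1 and 0.157 for EFEMP2. They were lost too without R272K replicate 3 (adjusted p = 0.0783 for TGFBI, 0.128 for TINAGL1, 0.206 for VWA1 and 0.191 for EFEMP2). Calls were also lost without R272K replicate 1 for VWA1 (0.0815) and EFEMP2 (0.139), without WT replicate 2 for TGFBI (0.0549), VWA1 (0.130) and EFEMP2 (0.112), and without WT replicate 3 for EFEMP2 (0.0591).

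Of 23 receptors and hemidesmosome parts, 22 were tested and 1 rose, SDC4 (0.685% of all genes), with a median log2 fold change of 0.09, and of 0.050 without WT replicate 1. SDC4, the syndecan-4 heparan sulfate proteoglycan of focal adhesions, averaged 556 ± 18.2 CPM in R272K cells and 438 ± 16.7 CPM in WT cells (log2 fold change 0.34, SE 0.0597, adjusted p = 0.0126). Its call was lost without any 1 of the R272K replicates (adjusted p between 0.0857 and 0.162) and without WT replicate 2 (adjusted p = 0.10). ITGB4, the beta-4 integrin that binds laminin-332, averaged 40.3 ± 2.05 CPM in R272K cells and 32.7 ± 2.98 CPM in WT cells (log2 fold change 0.30, SE 0.0848, adjusted p = 0.118). Without WT replicate 1, 6 genes of this list were higher (2.94% of all genes): SDC4, SDC2, DDR1, ITGA6, ITGB1 and ITGB4. Of 18 genes that build the laminin-binding sugar of dystroglycan, 17 were tested and none was called, with a median log2 fold change of 0.026, and of -0.0082 without WT replicate 1. The smallest p-values belonged to DOLK (20.7 ± 0.688 CPM in R272K cells and 24.1 ± 1.77 CPM in WT cells, adjusted p = 0.284) and B3GALNT2 (33.3 ± 0.770 CPM in R272K cells and 30.5 ± 1.06 CPM in WT cells, adjusted p = 0.479).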

How the data were processed

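RNA from 6 libraries, 3 R272K and 3 WT, was captured as polyadenylated RNA, per the labels' protocols. Reads went through HISAT2 2.1.0, HTSeq 0.10.0, fastp 0.23.0 and SAMtools on GRCh38, in an order not given, per the submitters' processing notes. The sources used here do not state settings, strandedness or annotation release. Unnormalised counts by symbol were deposited, and a separate table by the authors gives TPM computed from those counts and a gene length. Repeated symbols (1875 of 62710 lines) were used once. The relative length of a gene is the ratio of its count to its TPM. Genes were filtered by edgeR (minimum count 10, minimum total 15), scaled by TMM and tested by the robust quasi-likelihood test of edgeR (two-sided) with the group as the only term and Benjamini-Hochberg adjustment over all 15911 genes. SE was taken as |log2 fold change|/√F. Length trends were removed as a lowess offset (span 0.3). Software was edgeR 4.0.16, DESeq2 1.42.0 and limma 3.58.1 in R 4.3.3, with matplotlib 3.10.9, pandas 2.3.3 and numpy 2.4.6 in Python 3.11.15. Alternatives were scaling by library size alone, upper quartile or RLE, other filters and tests (DESeq2, limma-voom, limma on TPM), a replicate block, length correction and leaving out each library. The members and the lists were chosen with earlier results of these data known. Every tested member is named, the called members, the 10 with the smallest p and the 4 most abundant have their value in every library, and each list is shown by its called genes or otherwise its 2 smallest p-values, to which SDC4's list adds ITGB4, a laminin-332 receptor chosen after its values were seen. Further list genes are named where a count without WT replicate 1 includes them.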

Additional observations from a re-analysis of the deposited data

How the results depend on the processing

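The count of members called, 1 in the reported fit, stayed at 1 under RLE, upper quartile and library-size scaling, a filter of 1 CPM in 3 libraries and limma-voom. It was 5 with no filter on low counts, 2 with DESeq2, 3 with the replicate number as a block (NID1, HSPG2 and LAMA5), 0 by limma on log2(TPM + 1), on log2(TPM + 0.1) and on log2(TPM + 1) with no filter, 6 with the length trend removed, 5 with that and the replicate block, and 6 with that and WT replicate 1 left out, a fit chosen after seeing the data. Leaving out each library in turn gave 0 to 6. The count over all genes, 193, was 474 with no filter, 61, 55 and 37 in the same 3 TPM fits, 619 with the length trend removed, 652 with the block added and 934 with WT replicate 1 left out as well, and 55 to 875 when each library was left out. The 5 calls among the 4 lists became 2, 2 and 1 in the TPM fits, 10 with the length trend removed, 11 with the block added and 13 with WT replicate 1 left out as well, and 0 to 13 when each library was left out. Whether the replicate numbers pair the samples was not established. Same-numbered libraries had correlations of deviations of -0.065, -0.0072 and -0.012, and differently numbered ones -0.060 to 0.073. With 3 libraries per group, and WT replicate 1 apart from the others, these values cannot decide it. With the block, all genes called numbered 262.

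Of the single genes, some near 0 changed sign: COL7A1 (-0.051 with the length trend removed, -0.047 with the block added, and -0.012 to 0.063 with a library left out), LAMC3 (-0.043 and -0.041 in those fits, and -0.053 to 0.071), LAMA1 (0.0063 under upper quartile scaling, 0.0050 by limma-voom, 0.012, 0.016 and 0.012 in the TPM fits, and -0.10 to 0.061), COL4A3 (-0.29 to 0.27) and SPARC (-0.033 to 0.51). The chain ratios kept their place on the side of no call, which 3 against 3 libraries cannot leave. NID1 and the calls of the lists that were lost without a library are given with the results. Members at about 1 CPM or less rest on few counts per library, and at that depth differences of the size seen in the abundant members are not resolved.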

Other observations

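The antisense transcript LAMA5-AS1, which shares 118 exonic bases with LAMA5, had 5, 7 and 3 counts in R272K libraries and 1, 2 and 2 counts in WT libraries. The groups did not overlap, but it was under the filter on low counts and was not tested. The summed level of all 30 members was 1633, 1621 and 1781 TPM in R272K libraries, against 1267, 1558 and 1562 TPM in WT libraries. The lowest R272K library was thus above the highest WT library. WT replicate 1 was the lowest of all and R272K replicate 3 the highest. Without R272K replicate 3 the log2 fold change was 0.20 for AGRN, 0.22 for LAMA5 and 0.087 for COL18A1. In that fit the members' median was 0.17, against 0.14 with all libraries. Laminins held 699 ± 31.7 TPM of the summed level in R272K cells and 626 ± 82.6 TPM in WT cells (SD, n = 3 each).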
